A study of Caenorhabditis elegans with 36 samples.

Results

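The late young-adult hours of wild-type C. elegans were examined by comparing small RNA libraries collected at 40, 41 and 42 h after plating with those collected at 37, 38 and 39 h. These 6 libraries of the N2 strain (WT) were chosen by hour and genotype from 36 in the series, which also holds 12 WT libraries of 25 to 36 h and 18 libraries of ebax-1(tm2321) mutants of 25 to 42 h. All animals had been synchronized as first-stage larvae, plated on bacteria, kept at 25 °C without treatment and collected whole, and the mutants were not used here. The labels give hours and no stage, and "young adult" follows the study's description of these hours. A single library was made per hour and no separate cultures are named, so the 3 neighbouring hours of a window stand in for replicates, and any drift within a window enters its spread.

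MicroRNAs (miRNAs) are short RNAs cut from a hairpin precursor. The strand called the guide is loaded into an Argonaute protein and represses messenger RNAs that match its 5′ seed, and the other, the passenger, is usually lost quickly. Here the more abundant strand over the 6 libraries is called the guide, and 5p and 3p name the arm of the hairpin. In the worm the heterochronic miRNAs lin-4 and let-7 time larval cell fates, whereas the miR-35 family is best known from oocytes and embryos, which the adult hermaphrodite starts to produce in the hours after the last moult.

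The deposited table holds read counts for 437 mature strands. Totals ran from 3466318 at 37 h to 5286785 at 39 h. All but 203 of the strands had enough counts to be tested, and 71 of those 203 had no count in any of the 6 libraries. Levels are given as CPM, the usual count of a strand scaled to the miRNA total of its library, here with TMM factors, and differences are log2 values of 40-42 h minus 37-39 h ± SE (n = 3 libraries per window). Markers of several tissues were present at every hour. The muscle miRNA miR-1-3p stood at 50126 to 60090 CPM, the intestinal miR-60-3p at 236 to 314 CPM, and the neuronal miR-124-3p and lsy-6-3p at 31.0 to 50.002 and 5.59 to 12.4 CPM. In RNA from whole animals, fewer cells of a type and less RNA per cell cannot be told apart.

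The first question was which miRNAs were gained or lost between the 2 windows. The largest differences were gains of the miR-35 family, by up to 1.96 ± 0.54 for miR-39-3p, and outside that family most levels stayed close to where they were. Of the strands tested 203 differed by less than 0.5 and 9 by more than 1, with a median of -0.03. Those 9 include miR-8198-3p (1.08 ± 0.51), which lies outside the family and was rare, at 1.25 to 8.56 CPM. No strand passed an adjusted p of 0.01 in edgeR's quasi-likelihood F-test (0%), where the smallest adjusted p was 0.110, and 47 had an unadjusted p under 0.05, 29 higher (12.4%) and 18 lower (7.69%). DESeq2's Wald test called 1 strand, miR-41-5p (1.09 ± 0.25, adjusted p = 0.00430), with 28 at an unadjusted p under 0.05, and limma on the deposited log2 values called 0, with 61. In 33 strands (14.1%) all 3 later libraries lay above all 3 earlier ones, and in 33 others (14.1%) all lay below.

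The windows were not sharply divided. The libraries of 39 and 40 h, which lie on either side of the boundary, had a Pearson correlation of 0.997 across the strands tested, close to that of 40 and 41 h (0.998) and above that of 37 and 38 h (0.995), and the lowest was that of 37 and 42 h (0.978). These are correlations across miRNAs, which are not independent replicates. Levels were therefore also fitted with the hour as a straight line over 37 to 42 h, where 16 strands rose (6.84%) and 3 fell (1.28%) at an adjusted p of 0.01 by the same edgeR test, and "rose" and "fell" are used below for these 19 strands. Of the 16 rises 12 were of the miR-35 family. The other 4 were miR-44-5p, miR-61-3p, miR-71-5p and miR-1829b-5p, and the 3 falls were let-7-5p, miR-60-5p and miR-789-2-5p. With library totals in place of TMM factors the split was 16 rises and 7 falls. Without the library of 37 h this fit called 10 rises and 0 falls, without that of 40 h 13 rises and 1 fall, and without that of 42 h 9 rises and 0 falls. 8 strands, all of the miR-35 family, were called in each of 12 alternative fits and leave-outs, namely the 3p strands of miR-35 through miR-40 with miR-39-5p and miR-41-5p, at an adjusted p of 0.00490 at most.

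**Figure D1:**
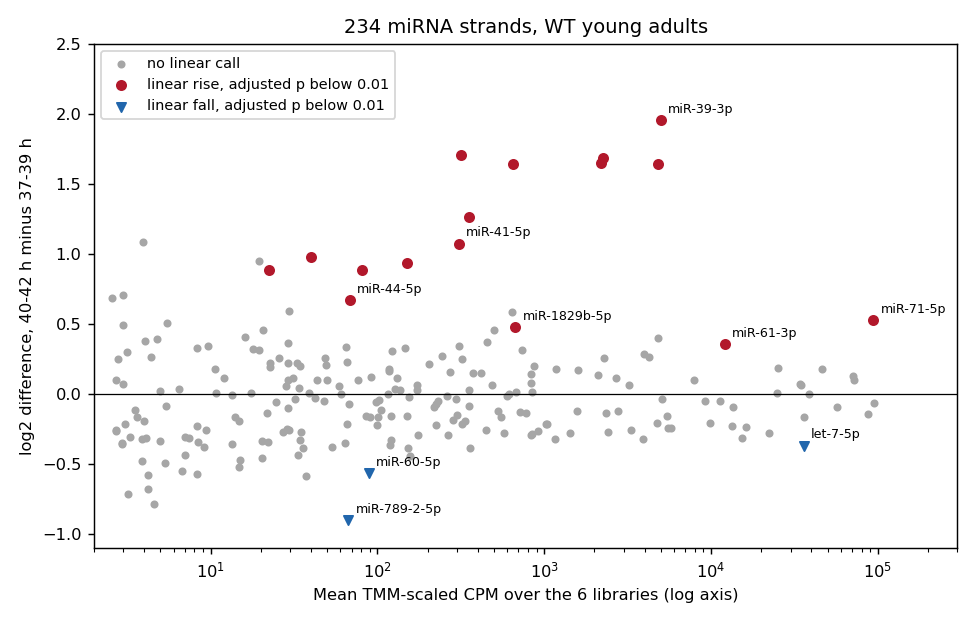
log2 difference of 40-42 h minus 37-39 h (vertical axis) against the mean CPM over the 6 libraries (horizontal log axis) for each strand tested. Red points rose and blue triangles fell as a straight line over 37 to 42 h. The 12 highest red points are the strands of the miR-35 family, and the most abundant strand that rose is miR-71-5p.

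The miR-35 family has 8 hairpins, miR-35 to miR-42, whose 3p strands share a seed. In the WBcel235 annotation miR-35 to miR-41 lie together on chromosome II opposite to Y62F5A.9 and inside its intron, and miR-42 lies elsewhere on chromosome II beside miR-43 and miR-44. Of 16 strands 14 could be tested. All 14 were above 0, with a median of 1.17 against -0.03 for all strands tested, 13 of 14 were higher at an unadjusted p under 0.05 (12.4% of all strands tested) and 12 of 14 rose (6.84% of all strands tested). The summed level of the 14 was 3022 to 11957 CPM at 37 to 39 h and 19764 to 34743 CPM at 40 to 42 h.

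miR-39-3p rose most steeply of all strands tested. It was at 725, 1832 and 3600 CPM at 37, 38 and 39 h and 5791, 5907 and 12188 CPM at 40, 41 and 42 h. Each hour was above the one before it, and the windows did not overlap. Between windows it differed by 1.96 ± 0.54, and the fitted slope was 0.74 ± 0.07 log2 per hour (edgeR adjusted p = 0.000192 for the slope), or a fitted 12.95-fold from 37 to 42 h.

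miR-36-3p, at a similar level, was at 957, 2455 and 3543 CPM at 37, 38 and 39 h and 6005, 5669 and 10105 CPM at 40, 41 and 42 h. The value of 41 h lay slightly under that of 40 h, and that of 42 h was the highest. This gave a difference of 1.65 ± 0.43 and a slope of 0.60 ± 0.07 log2 per hour (edgeR adjusted p = 0.000283 for the slope), a fitted 8.05-fold over the 5 h.

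miR-35-3p and miR-37-3p ran almost side by side. miR-35-3p was at 380.2, 1170 and 1651 CPM at 37, 38 and 39 h and 2850, 2970 and 4494 CPM at 40, 41 and 42 h, and miR-37-3p at 414, 1140 and 1620 CPM at 37, 38 and 39 h and 2798, 2836 and 4327 CPM at 40, 41 and 42 h. The relative increase was largest from 37 to 38 h and smallest from 40 to 41 h in each of them. For miR-35-3p the difference was 1.69 ± 0.46 and the slope 0.63 ± 0.08 log2 per hour (edgeR adjusted p = 0.000398 for the slope), a fitted 8.81-fold level at 42 h relative to 37 h. Between windows miR-37-3p differed by 1.65 ± 0.43, and its slope was 0.61 ± 0.07 log2 per hour (edgeR adjusted p = 0.000345 for the slope), or a fitted 8.15-fold from 37 to 42 h.

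miR-38-3p and miR-40-3p were the least abundant of these guides, and their relative increase was much the same. miR-38-3p stood at 61.9, 154 and 230.4 CPM at 37, 38 and 39 h and 387, 423 and 655 CPM at 40, 41 and 42 h. This gave a difference of 1.71 ± 0.42 and a slope of 0.62 ± 0.06 log2 per hour (edgeR adjusted p = 0.000192 for the slope), a fitted 8.43-fold over the 5 h. miR-40-3p stood at 119.8, 366 and 463 CPM at 37, 38 and 39 h and 780.1, 864 and 1330 CPM at 40, 41 and 42 h. The difference was 1.65 ± 0.44 and the slope 0.60 ± 0.07 log2 per hour (edgeR adjusted p = 0.000345 for the slope), a fitted 8.01-fold level at 42 h relative to 37 h. Both gained in every hourly step.

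The 3p strand of miR-41, the strand that carries the family's seed, was too rare to test, with raw counts of 1, 1 and 4 at 37, 38 and 39 h and of 9, 12 and 54 at 40, 41 and 42 h. Its 5p strand was better covered, at 116, 230.5 and 247.2 CPM at 37, 38 and 39 h and 369, 398 and 485 CPM at 40, 41 and 42 h. Between windows it differed by 1.08 ± 0.27, and the fitted slope was 0.37 ± 0.05 log2 per hour (edgeR adjusted p = 0.000558 for the slope), or a fitted 3.61-fold from 37 to 42 h. It increased in all 5 hourly steps, as did miR-35-3p, miR-37-3p, miR-37-5p, miR-38-3p, miR-39-3p, miR-39-5p and miR-40-3p of this family. Over all strands tested 9 were higher after each step, the ninth being miR-61-3p, and 6 were lower after each.

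The passenger strands of the cluster, the 5p strands of miR-35, miR-36, miR-37, miR-39 and miR-40, rose as well, with smaller differences than their guides. miR-39-5p was at 101, 228 and 297 CPM at 37, 38 and 39 h and 392, 460.1 and 658 CPM at 40, 41 and 42 h. This gave a difference of 1.27 ± 0.36 and a slope of 0.47 ± 0.05 log2 per hour (edgeR adjusted p = 0.000283 for the slope), a fitted 5.09-fold over the 5 h. miR-37-5p and miR-36-5p were also separated between windows, with differences of 0.94 ± 0.25 and 0.88 ± 0.26. miR-35-5p (0.98 ± 0.37) and miR-40-5p (0.88 ± 0.36) were rare, at 13.6 to 74.1 and 9.61 to 42.52 CPM, and their windows overlapped because 39 h exceeded 41 h or 40 h. The difference of miR-40-5p was 0.49 without 42 h and 1.36 without 39 h. The median difference was 1.65 for the 8 guides or only strands and 0.91 for the 6 passengers. As these roles follow abundance, the 8 include miR-41-5p and miR-42-5p, and the 6 include miR-42-3p. The rise of miR-39-5p was called in every leave-out and those of the other 4 passengers of the cluster were not. Without 37 h those of miR-35-5p, miR-37-5p and miR-40-5p were lost, without 42 h those of miR-35-5p, miR-36-5p and miR-40-5p, without 40 h that of miR-35-5p and without 41 h that of miR-37-5p, at slopes of 0.225 to 0.440 over all alternatives.

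miR-42, the member outside the cluster, gave smaller values, and neither of its strands rose. miR-42-3p was at 5.94, 3.75 and 4.004 CPM at 37, 38 and 39 h and 6.39, 3.25 and 9.36 CPM at 40, 41 and 42 h, with overlapping windows and a difference of 0.51 ± 0.38 that did not pass. That difference was 0.10 without 42 h and 0.81 without 41 h. miR-42-5p was at 19.2, 20.2 and 30.8 CPM at 37, 38 and 39 h and 39.7, 32.8 and 34.8 CPM at 40, 41 and 42 h, with separate windows, a difference of 0.59 ± 0.20 and a linear term that did not pass (edgeR adjusted p = 0.0477).

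The longer WT course places these gains, on a scale set over all 18 WT libraries and described without a test. miR-35-3p went from 538 CPM at 31 h to 147 CPM at 35 h, its lowest value of the course, and stood at 5312 CPM at 42 h, its highest. All 6 clustered 3p strands that could be tested had their lowest level at 35 h and their highest at 42 h. The 37-39 h window already stood above 34-36 h, by 2.39 for miR-35-3p, 2.36 for miR-39-3p and 1.43 for miR-38-3p in mean log2 level, and on the same scale 40-42 h stood above 37-39 h by a further 1.91, 2.16 and 1.88. For the 5p strands the earlier step was the larger one in each case, for example 2.83 and then 1.38 for miR-39-5p. miR-42-3p was 1.53 lower at 37-39 h than at 34-36 h, and 0.37 higher at 40-42 h than at 37-39 h.

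**Figure D2:**
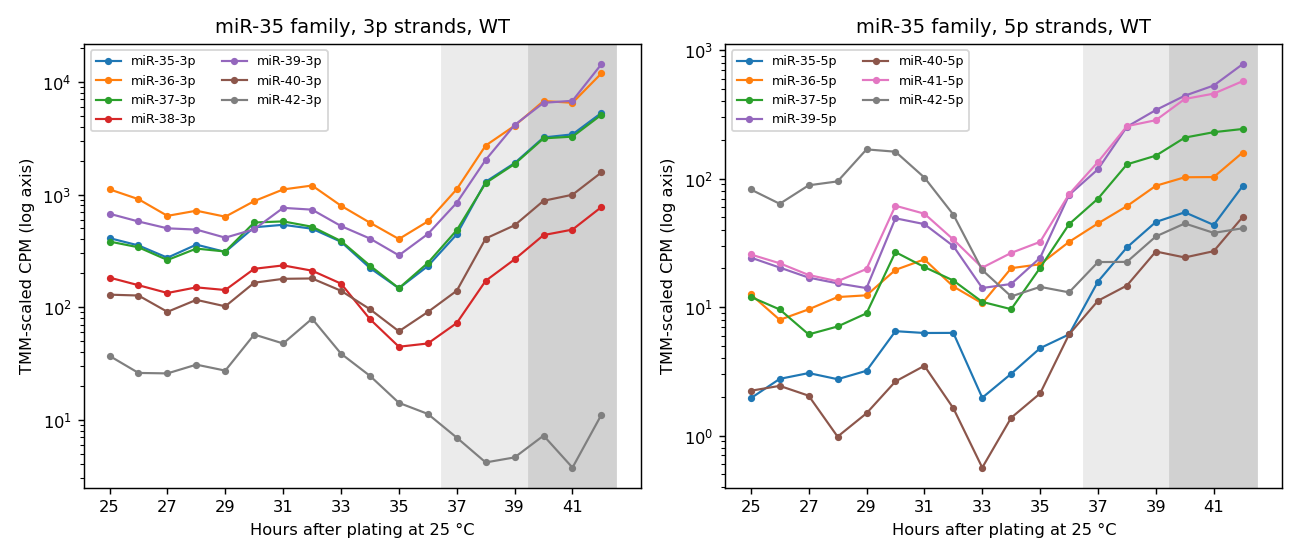
TMM-scaled CPM (vertical log axis, scaled over 18 WT libraries) of the 3p strands (left) and 5p strands (right) of the miR-35 family at each hour from 25 to 42 h. Light grey marks 37-39 h and dark grey 40-42 h. The clustered 3p strands run together from a low at 35 h to their highest level at 42 h, and miR-42-3p is at 14.1 CPM or lower from 35 h on.

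The neighbours of miR-42, miR-43 and miR-44, and the relative of miR-44, miR-45, gave different values for guides and passengers. The guides miR-44-3p and miR-45-3p, which are known to be near-identical in sequence and can share reads, kept a constant ratio of 2.89 to 2.94 at all 6 hours, so their single values are uncertain. miR-44-3p was at 19670, 16768 and 16038 CPM at 37, 38 and 39 h and 15460, 15187 and 13960 CPM at 40, 41 and 42 h. Each hour was lower than the one before and the windows did not overlap, but the difference of -0.23 ± 0.10 and the linear term (edgeR adjusted p = 0.0261) did not pass. The passenger miR-44-5p rose, at 43.2, 57.999 and 56.1 CPM at 37, 38 and 39 h and 67.6, 92.4 and 91.4 CPM at 40, 41 and 42 h. The difference was 0.67 ± 0.17 and the slope 0.22 ± 0.04 log2 per hour (edgeR adjusted p = 0.00227 for the slope), a fitted 2.14-fold level at 42 h relative to 37 h. That call was lost without 37 h (0.20 per hour) and without 42 h (0.24 per hour). On the longer scale miR-44-5p was at 393 CPM at 29 h, 21.6 CPM at 35 h and 108 CPM at 42 h. In mean log2 level its 37-39 h window stood 1.17 above 34-36 h, and 40-42 h a further 0.68 above 37-39 h. miR-45-5p (0.34 ± 0.16), miR-43-3p (0.22 ± 0.20) and miR-43-5p (0.41 ± 0.27) did not pass. Without 37 h the differences of miR-44-3p, miR-45-3p, miR-45-5p and miR-43-5p were -0.14, -0.15, 0.19 and 0.19, and without 39 h those of miR-43-3p and miR-43-5p were 0.46 and 0.80. The list of these 3 hairpins had 1 rise and 0 falls among 6 strands, with a median of 0.28.

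Outside these clusters, 3 strands rose, and each call was kept in 2 of the 6 leave-outs. miR-71-5p comes from an intron of ppfr-1, is among the most abundant strands of the adult and is known to promote long life. It was at 60937, 91400 and 78586 CPM at 37, 38 and 39 h and 105458, 109960 and 117198 CPM at 40, 41 and 42 h. The later libraries all exceeded the earlier ones, and 42 h was the highest of the 18 WT hours. On the longer scale it was at 73488 CPM at 29 h, 12597 CPM at 33 h and 138546 CPM at 42 h. In mean log2 level 37-39 h stood 1.55 above 34-36 h, and 40-42 h a further 0.56 above 37-39 h. Between windows it differed by 0.53 ± 0.13, and the fitted slope was 0.17 ± 0.03 log2 per hour (edgeR adjusted p = 0.00562 for the slope), or a fitted 1.78-fold from 37 to 42 h. Its passenger miR-71-3p was at -0.21 ± 0.12, with overlapping windows. miR-61-3p, which in the vulva represses the Vav homologue vav-1, increased at every step, at 9759, 10541 and 11416 CPM at 37, 38 and 39 h and 12955, 13575 and 14043 CPM at 40, 41 and 42 h. This gave a difference of 0.36 ± 0.09 and a slope of 0.11 ± 0.02 log2 per hour (edgeR adjusted p = 0.00552 for the slope), a fitted 1.47-fold over the 5 h. Over the whole course it went from 16679 CPM at 25 h through 9426 CPM at 35 h to 16601 CPM at 42 h. miR-250-3p, from the same transcript neighbourhood on chromosome V, stood at 0.07 ± 0.11 and did not pass, so that the list of both had 1 rise among 4 strands, with a median of 0.29.

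miR-1829b-5p comes from an intron of F20D1.3 on the X chromosome, and was singled out because it passed the linear test. It was at 515, 598 and 567 CPM at 37, 38 and 39 h and 685, 772 and 882 CPM at 40, 41 and 42 h, with separate windows and its highest level of the 18 hours at 42 h. The difference was 0.48 ± 0.13 and the slope 0.15 ± 0.03 log2 per hour (edgeR adjusted p = 0.00561 for the slope), a fitted 1.68-fold level at 42 h relative to 37 h. The calls of miR-71-5p, miR-61-3p and miR-1829b-5p were each lost without 37 h, 40 h, 41 h or 42 h, at slopes of 0.117 to 0.199, 0.102 to 0.133 and 0.133 to 0.172 over all 12 alternatives. The strand with the smallest unadjusted window p, miR-83-3p, did not rise linearly at the threshold. It was singled out after its values were seen, and belongs to a hairpin related to the mammalian miR-29. Its level was 14.1, 15.7 and 10.2 CPM at 37, 38 and 39 h and 24.8, 23.6 and 28.3 CPM at 40, 41 and 42 h, a step between 39 and 40 h, with a difference of 0.95 ± 0.19 (edgeR adjusted p = 0.110), while the more abundant miR-83-5p was at 0.20 ± 0.13.

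**Figure D3:**
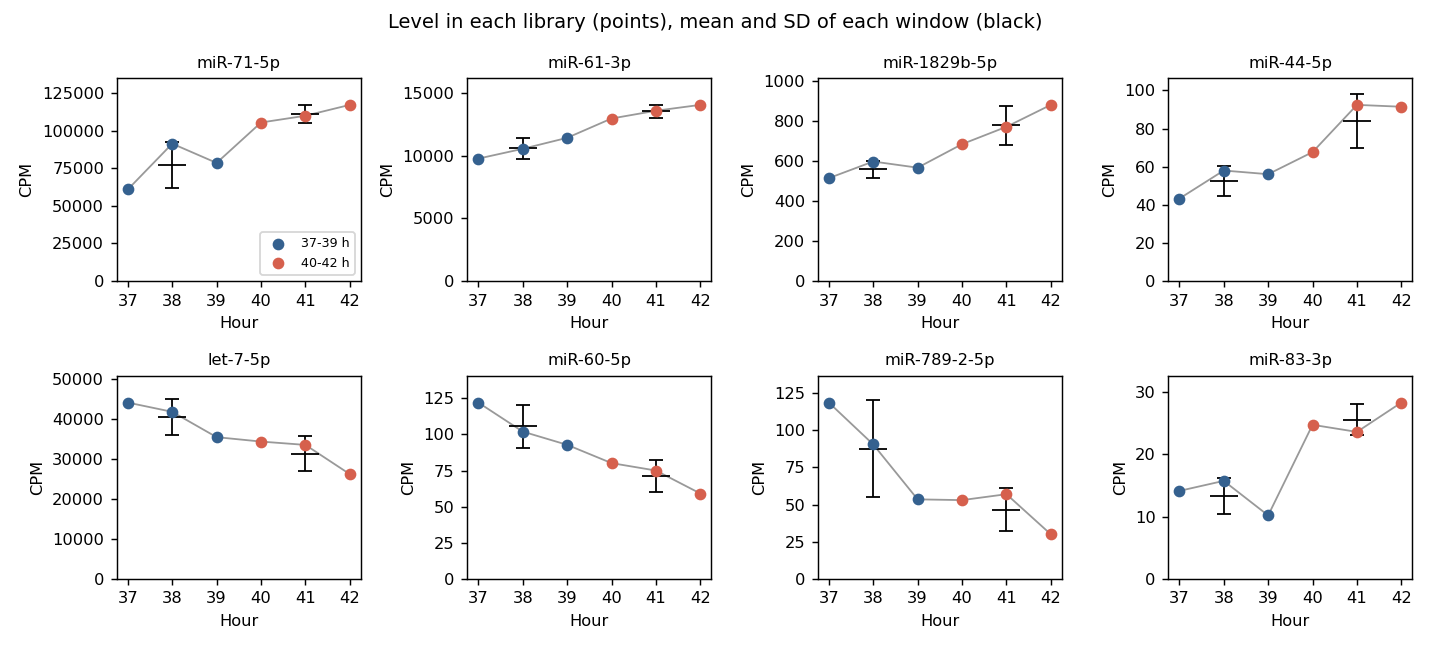
CPM (vertical axis, from 0) at each hour from 37 to 42 h (horizontal axis) for the 4 strands outside the miR-35 family that rose, the 3 that fell, and miR-83-3p. Points are libraries, black bars the mean and SD of each window. miR-71-5p goes from 60937 CPM at 37 h to 117198 CPM at 42 h, and let-7-5p is lower at each hour than at the one before.

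Of the 3 falls, that of let-7-5p carried most reads. let-7 drives the transition to adult cell fates by repressing lin-41. Its guide was at 44069, 41754 and 35422 CPM at 37, 38 and 39 h and 34315, 33482 and 26162 CPM at 40, 41 and 42 h. Each hour lay under the one before it, and the windows did not overlap. Between windows it differed by -0.37 ± 0.13, and the fitted slope was -0.14 ± 0.02 log2 per hour (edgeR adjusted p = 0.00227 for the slope), or a fitted 0.626-fold from 37 to 42 h. The call was lost without 37 h, 40 h or 42 h, at slopes of -0.148 to -0.110 over the alternatives. Over the whole course let-7-5p had its highest level at 36 h (54388 CPM) and was at 30927 CPM at 42 h, still above its 25 h level of 25539 CPM. The passenger let-7-3p was close to the lower limit of the data, at 5.94, 4.75 and 4.91 CPM at 37, 38 and 39 h and 2.66, 3.25 and 3.74 CPM at 40, 41 and 42 h, after 252 CPM at 32 h on the longer scale, and its difference of -0.68 ± 0.25 did not pass.

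The sisters of let-7, which share its seed, gave smaller values, and the difference between them and let-7-5p was not tested. miR-48-5p was level at 0.00 ± 0.07 and miR-84-5p at -0.09 ± 0.09, and miR-241 gave -0.29 ± 0.16 for its 3p and -0.21 ± 0.13 for its 5p strand. In the let-7 family of 8 strands 0 rose and 1 fell, with a median of -0.15. The let-7-like miRNAs were all below 0, 0 of 4 passing, with a median of -0.35. miR-793 was at 440.4, 435 and 351 CPM at 37, 38 and 39 h and 332, 339 and 268 CPM at 40, 41 and 42 h, with separate windows and a difference of -0.39 ± 0.15 (edgeR adjusted p of the linear term 0.0155). miR-795-5p (-0.32 ± 0.15), miR-795-3p (-0.38 ± 0.14) and miR-794-5p (-0.16 ± 0.11) did not pass either.

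lin-4, which ends the earliest larval programme by repressing lin-14 and lin-28, gave no call. lin-4-5p was at 432, 419.7 and 333 CPM at 37, 38 and 39 h and 397, 412 and 504 CPM at 40, 41 and 42 h (0.15 ± 0.15), with overlapping windows. Without 42 h its difference was 0.02, and without 39 h it was 0.05. Its relative miR-237-5p was far more abundant, at 11960 to 15933 CPM, and at -0.22 ± 0.11. None of the 4 strands of this family passed, and the median was 0.13.

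The fall of miR-60-5p concerned the passenger of an intestinal miRNA. It was at 122, 102 and 92.8 CPM at 37, 38 and 39 h and 80.2, 75.01 and 59.1 CPM at 40, 41 and 42 h, lower at each step. This gave a difference of -0.56 ± 0.16 and a slope of -0.19 ± 0.03 log2 per hour (edgeR adjusted p = 0.00186 for the slope), a fitted 0.512-fold over the 5 h. That call was lost without 37 h or 42 h. The guide miR-60-3p was at 243, 236 and 295 CPM at 37, 38 and 39 h and 311, 241.3 and 314 CPM at 40, 41 and 42 h, with overlapping windows and a difference of 0.16 ± 0.15. The level of miR-60-5p at 42 h, 69.9 CPM on the longer scale, was the lowest of the 18 hours.

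miR-789-2-5p, singled out because it passed the linear test, lies in an intron of T28F3.9 on chromosome IV, on the opposite strand. It was at 119, 90.5 and 53.5 CPM at 37, 38 and 39 h and 52.999, 57.0 and 29.9 CPM at 40, 41 and 42 h. Its windows overlapped, since 41 h exceeded 39 h. The difference was -0.90 ± 0.32 and the slope -0.34 ± 0.05 log2 per hour (edgeR adjusted p = 0.00193 for the slope), a fitted 0.310-fold level at 42 h relative to 37 h. The call was lost without 37 h, 40 h or 42 h. Its highest level in the course was 185 CPM at 36 h, as for let-7-5p.

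Other families were described by list, and in most of them no strand rose or fell. In the miR-51 family, relatives of miR-100, 10 of 12 strands were above 0, with a median of 0.18 and 0 passing. miR-51-5p was at 475, 591 and 469 CPM at 37, 38 and 39 h and 671, 587 and 1044 CPM at 40, 41 and 42 h (0.59 ± 0.22). The value of 42 h was far above the rest, and without that library the difference was 0.29. miR-52-5p (0.29 ± 0.16) and miR-56-3p (0.37 ± 0.16) were also highest at 42 h among these 6 hours, and without that library they were at 0.08 and 0.18. In the miR-58 family, bantam relatives and the most abundant list here, the summed level was 265585 to 275690 CPM at 37-39 h and 260181 to 271758 CPM at 40-42 h, 0 of 8 strands passed, and the median was -0.06. miR-58a-3p was at 0.13 ± 0.15 and the passenger miR-80-5p at 0.26 ± 0.11.

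The miR-64 cluster, in an intron of gcn-1 on chromosome III, had 0 of 8 strands passing and a median of 0.01. Its miR-66-5p stood at 44816, 41107 and 45172 CPM at 37, 38 and 39 h and 49639, 50246 and 48307 CPM at 40, 41 and 42 h (0.18 ± 0.07), with separate windows, and the passenger miR-66-3p was at -0.38 ± 0.15. The list labelled steep adult risers holds miR-85, miR-246 and miR-1817, and gave values near 0 or below. Despite that label, miR-1817 was highest at 35 h on the longer scale (660 CPM), before these windows. miR-85-3p, which on the longer scale went from 575 CPM at 25 h to 25822 CPM at 34 h, was at 24254, 23376 and 26468 CPM at 37, 38 and 39 h and 24530, 24820 and 25085 CPM at 40, 41 and 42 h here, a difference of 0.01 ± 0.08. miR-246-3p was at 0.10 ± 0.09 and miR-1817 at -0.25 ± 0.12, and 0 of 4 strands of this list passed, with a median of -0.12.

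Of the 8 strands of miRNAs known to increase from the third larval stage on, 7 were below 0, with a median of -0.16 and 0 passing. miR-358-3p was lower at each hour than at the one before, at 143, 130.2 and 129 CPM at 37, 38 and 39 h and 116, 99.2 and 96.8 CPM at 40, 41 and 42 h (-0.36 ± 0.12), and its cluster partner miR-357-3p was at -0.28 ± 0.12. miR-359 was at 0.16 ± 0.12. Of the miRNAs that decline late in the last larval stage, miR-788-3p (-0.07 ± 0.14) and miR-788-5p (-0.06 ± 0.21) stood near 0 here, and miR-247-3p was rare, at 7.63, 6.75 and 9.65 CPM at 37, 38 and 39 h and 4.79, 6.79 and 5.08 CPM at 40, 41 and 42 h, with a difference of -0.55 ± 0.24 and 0 of 3 strands passing, median -0.07. miR-235-3p, a miR-92 relative whose level cycles in larvae, was at 27030, 26605 and 19890 CPM at 37, 38 and 39 h and 20766, 22236 and 17682 CPM at 40, 41 and 42 h (-0.28 ± 0.14), with overlapping windows, and the list of it and miR-71 had 1 rise among 3 strands, median -0.21.

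Among the miRNAs linked to lifespan, 1 of 11 strands rose, miR-71-5p, and the median was -0.21. This count and the single rises in the lists of 3, 4 and 6 strands stand beside 6.84% of all strands tested. That share is made up mostly of the miR-35 family, with 12 of the 16 rises. A single strand per list does not set any of these lists apart. miR-34-5p, of a family known for its part in stress responses and ageing, was at 3614, 3771 and 4185 CPM at 37, 38 and 39 h and 4511, 4224 and 5137 CPM at 40, 41 and 42 h. The later libraries all exceeded the earlier ones, but neither the difference of 0.26 ± 0.12 nor the linear term (edgeR adjusted p = 0.0414) passed, the difference was 0.17 without 42 h, and its passenger miR-34-3p was at -0.27 ± 0.14. The passenger miR-239a-3p was at -0.43 ± 0.16. Its guide miR-239a-5p had overlapping windows on the longer scale. There it was at 751, 1202 and 589 CPM at 37, 38 and 39 h and 772, 700 and 894 CPM at 40, 41 and 42 h. No strand of the miR-72 family (6 strands, median 0.02), the miR-75 family (4, median 0.12) or the mirtrons (3, median -0.09) passed. miR-75-5p was at 0.33 ± 0.11, with separate windows.

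No guide of the muscle, neuron or intestine markers rose or fell. The markers of the epidermis, let-7, lin-4, miR-48, miR-84, miR-241 and miR-235, are described above. Of these let-7-5p fell, and no other strand rose or fell. miR-1-3p was at 59555, 60090 and 56565 CPM at 37, 38 and 39 h and 57577, 57294 and 50126 CPM at 40, 41 and 42 h (-0.09 ± 0.08). Of the neuronal strands lsy-6-3p, which specifies the left ASE taste neuron, was at 12.4, 8.25 and 9.10 CPM at 37, 38 and 39 h and 5.59, 6.79 and 7.49 CPM at 40, 41 and 42 h (-0.57 ± 0.23), miR-791-5p of carbon dioxide-sensing neurons was at -0.52 ± 0.20 and miR-124-3p of sensory neurons at 0.01 ± 0.20, and 0 of 3 passed. Of the marker lists the muscle had 0 calls in 2 strands and the intestine 1 fall, miR-60-5p, in 2. The miR-35 family was used here as the marker list for embryos and germline, a choice not taken from the study. Its strands were also present in larval hours, for example miR-36-3p at 1112 CPM at 25 h on the longer scale. A change in the number of such cells and a change of level per cell cannot be told apart.

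**Figure D4:**
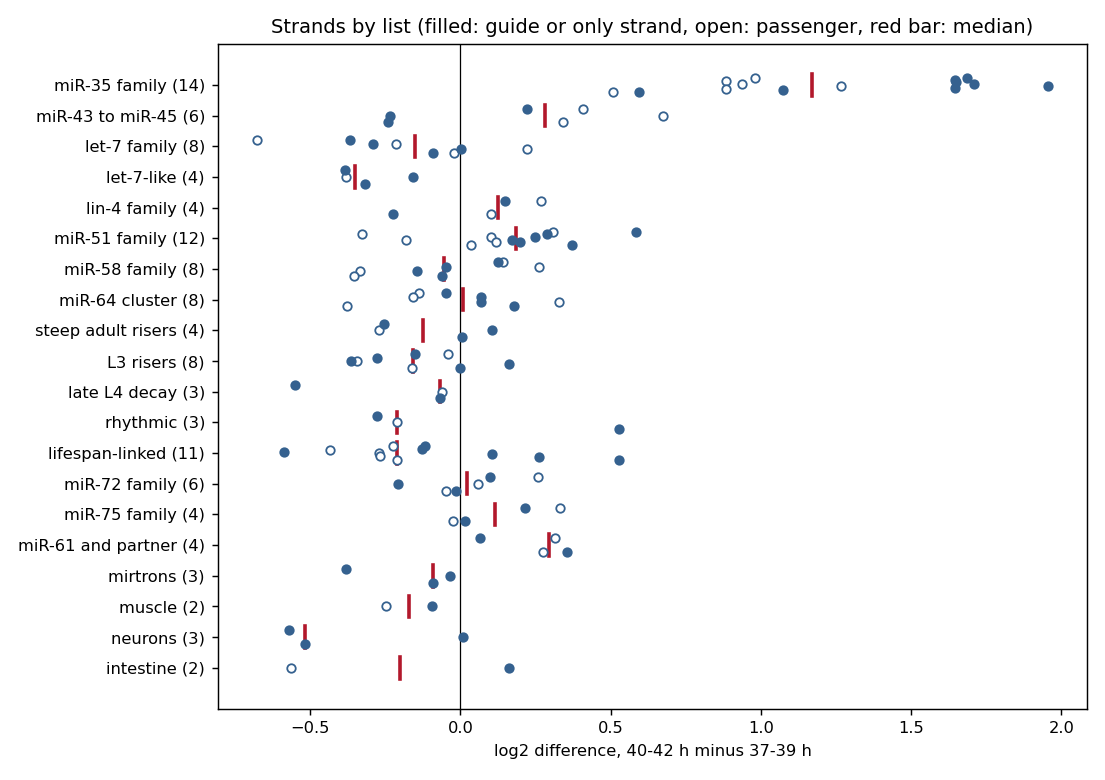
log2 difference of 40-42 h minus 37-39 h (horizontal axis) for each tested strand, by list, with the number of strands in parentheses. Filled points are guides or only strands, open points passengers, and red bars medians. The miR-35 family has a median of 1.17, and the medians of the other lists lie between -0.52 and 0.29.

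The last comparison asked whether the strands of a hairpin changed unequally, in 84 hairpins with both strands tested. The windows gave 0 calls (0%) in limma on the log2 ratio of guide to passenger, with a smallest adjusted p of 0.0565 and 16 hairpins at an unadjusted p under 0.05, 11 with a higher and 5 with a lower ratio. The ratio was also fitted with the hour as a straight line, a fit chosen after the data were seen. There the ratio of guide to passenger rose in 8 hairpins (9.52%) and fell in 2 (2.38%). The 8 were miR-35, miR-36, miR-37 and miR-39 of the miR-35 family with miR-34, miR-60, miR-66 and miR-71, and the 2 were miR-44 and miR-45. As the guides of miR-44 and miR-45 can share reads, these may not be 2 separate results. All 10 calls were lost without the library of 37 h, where 0 passed and 21 had an unadjusted p under 0.05.

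For miR-36 the log2 ratio of 3p to 5p was 4.57, 5.43 and 5.50 at 37, 38 and 39 h and 6.02, 5.96 and 6.20 at 40, 41 and 42 h, a slope of 0.294 per hour (adjusted p = 0.000922, limma). In miR-71 the ratio of 5p to 3p was 5.72, 6.35 and 6.24 at 37, 38 and 39 h and 6.64, 6.92 and 7.03 at 40, 41 and 42 h (0.247 per hour, adjusted p = 0.000641, limma). Both strands of miR-36 rose and the ratio rose with them, whereas in miR-71 the passenger was at -0.21 ± 0.12. In miR-44 the ratio of 3p to 5p was 8.76, 8.13 and 8.11 at 37, 38 and 39 h and 7.79, 7.33 and 7.22 at 40, 41 and 42 h, a slope of -0.298 per hour (adjusted p = 0.000369, limma). There the passenger rose and the guide, which can share reads with miR-45-3p, was lower in each later library. For miR-60 the ratio of 3p to 5p was 0.98, 1.197 and 1.65 at 37, 38 and 39 h and 1.93, 1.66 and 2.37 at 40, 41 and 42 h (0.246 per hour, adjusted p = 0.00410, limma), where the passenger fell and the windows of the guide overlapped.

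**Figure D5:**
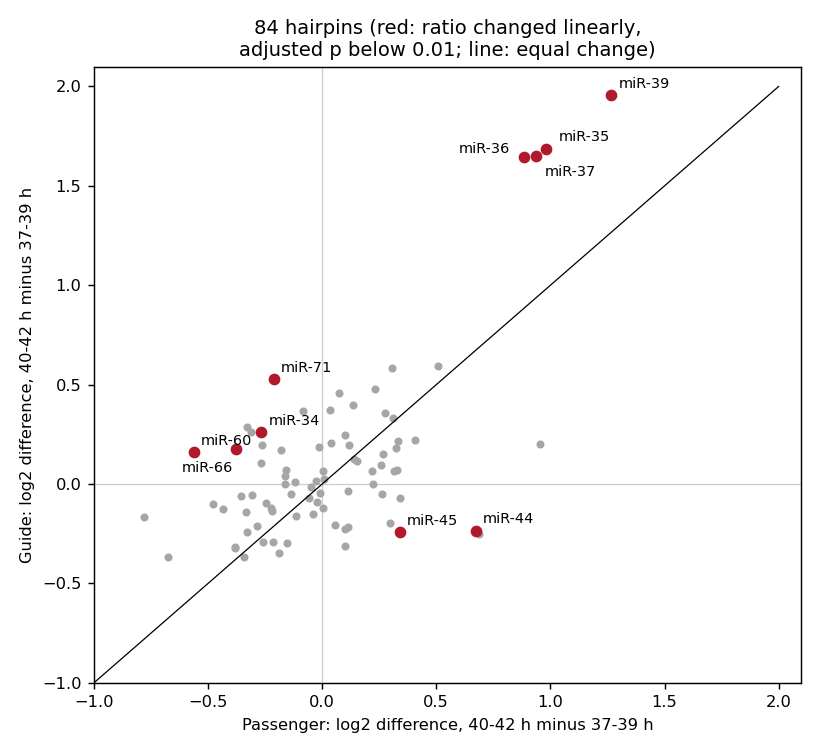
log2 difference of 40-42 h minus 37-39 h of the guide (vertical axis) against that of the passenger (horizontal axis) in 84 hairpins, with a line of equal change. Red points are the 10 hairpins whose ratio changed linearly with the hour, in a fit chosen after the data were seen. Those of the miR-35 family lie above the line with both strands at 0.88 or more. miR-44 and miR-45, whose guides can share reads, lie below it.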

How the data were processed

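Adapters were trimmed by the authors with QuasR. Bowtie placed the reads on ce10, with up to 100 matching positions per read, and the authors counted reads that began within 3 bases of the 5′ end of each mature strand in miRBase. No version of either tool was found (not given in the sources used here). Raw counts of 437 strands in 36 libraries, made with the CleanTag kit, were deposited. A second deposited table holds log2 values, for which the authors scaled every library to the mean total and added 8, and a recomputation from the counts differed by at most 5e-04. Reads with several positions were kept, so near-identical strands can share them. They carried no molecular identifiers.

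Counts of the 6 WT libraries of 37 to 42 h (3466318 to 5286785 counts each) were tested in R 4.3.3 with edgeR 4.0.16 (filterByExpr, minimum count 10, TMM factors, quasi-likelihood F-test, Benjamini-Hochberg over the strands kept, threshold 0.01), first by window and then with the hour as a linear term, listed with the window test as another way to fit it. The SE is the absolute log2 value divided by the square root of F. For strand ratios, limma 3.58.1 (trend = TRUE) was run on log2((guide + 8)/(passenger + 8)) of TMM-scaled counts in 84 hairpins. The course over 18 WT libraries was described in CPM with TMM factors of its own. Alternatives were other scalings and filters, DESeq2 1.42.0, limma on the deposited values, other windows, a threshold of 0.05 and leaving out each library. The further fits of the linear term, and the linear fit of the strand ratio, were chosen after seeing the data. Scripts were tested on simulated counts.

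The comparison and the lists were chosen with earlier results of these data known. The rule for naming strands was the 12 largest differences in each direction past the threshold with separate windows and at least 10 CPM, which none met, together with the members of the lists and the other strand of each. Strands outside it (miR-83, miR-789-2, miR-1829b and miR-8198) were chosen after their values were seen. With 3 libraries against 3, an exact permutation test could not go below p = 0.1, so none was used. As the labels name no separate cultures, p-values measure only the spread between these libraries. Annotation came from WBcel235, not the build of the files, so no coordinates are given, and mature sequences were not used here. The mutant libraries were left out because the comparison concerns WT only.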

Additional observations from a re-analysis of the deposited data

How the results depend on the processing

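The window comparison gave 0 calls at an adjusted p of 0.01 under 13 of 15 alternatives, and 0 at a threshold of 0.05. The exceptions were DESeq2's Wald test with 1 and the linear term with 19. The linear fit called 19 with DESeq2 size factors and 19 at a minimum count of 50 (16 rises and 3 falls in each), 23 with library totals and 23 by limma on the deposited values (16 rises and 7 falls in each), 22 without a filter (19 and 3) and 23 by DESeq2 (18 and 5), and each of these fits held all 19. At a threshold of 0.05 there were 43, and leaving out 1 library gave 9 to 21. The 30 lost calls of single slopes were all lost on leaving out a library, and the cause was not tested. The strand ratio gave 0 calls in each window fit, leave-outs included, and 10 with the hour as a linear term. That linear fit gave 16 at a threshold of 0.05 and 0 to 12 on leaving out 1 library. Of 70 named log2 differences, miR-8198-3p not among them, 64 kept their sign throughout. miR-48-5p was at -0.045 with library totals, -0.044 with limma, -0.0088 with the linear term and -0.00481 with 37 and 38 h against 41 and 42 h. miR-85-3p was at -0.040 with library totals and -0.036 with limma. miR-124-3p was at -0.033 with library totals, -0.061 with limma and -0.025 with 37 and 38 h against 41 and 42 h. Leaving out 1 library gave -0.028 to 0.014 for miR-48-5p, -0.049 to 0.068 for miR-85-3p, -0.23 to 0.15 for miR-124-3p, -0.028 to 0.28 for miR-58a-3p, -0.16 to 0.017 for miR-788-3p and -0.20 to 0.095 for miR-788-5p. No paired analysis was possible because replicate numbers only name the hours of a window and pair no libraries. In strands near the minimum count of 10, small differences were not detectable at this depth.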
